A study of Drosophila melanogaster with 39 samples.

Results

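The genes described here are 60 protein-coding genes of Drosophila melanogaster whose RNA was lower in sorted spermatocytes of both Leo1L and Paf1L mutants than in sorted control spermatocytes. They were chosen from 5465 genes, of 13659 measured, that had a mean normalized signal of at least 10 over the 3 control columns. Each gene was ranked by the highest of its 6 mutant values plus 1 over the lowest of its 3 control values plus 1, and the 60 lowest ratios were taken. Genes named upd1, ND-51L1, ORY, CCY, WDY or starting with kl- were left out of the ranking. The values of the sorted cells therefore chose the genes and are given for them without a test. Values of the bulk testis libraries did not enter the ranking. The choice was made with earlier results of these data known, so bulk counts may not be fully independent of it.

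Leo1L, Paf1L, Ctr9L and Cdc73L are testis-specific relatives of proteins that make up the PAF1 complex. That complex travels with RNA polymerase II along genes and acts in transcription elongation and in marking chromatin. Spermatocytes are the male germ cells that grow before meiosis and switch on a large program of testis genes, many of them stored as RNA for sperm formation. All flies were 1 to 3 days old. Sorted cells came from Leo1L homozygous mutants (allele FS1), Paf1L homozygous mutants (allele FS1) and w1118 controls, and all of them carried a GFP-tagged Cdc73L gene used for the sort, which reached a purity of at least 85% in 3 independent experiments per the labels' protocols. Each of the 9 sorted columns pools a pair of libraries, 1 of them depleted of ribosomal RNA, so that 18 of the 39 samples stand behind them. The 21 bulk testis libraries came from transheterozygous mutants of Cdc73L (TH1), Ctr9L (TH2), Leo1L (TH1), Leo1L from the inverted cross (TH1) and Paf1L (TH2), and from the control stocks w1118 and w1118 iso, with 3 libraries each. Nothing in the labels says that bulk replicates came from separate cultures, so p-values measure only the spread between these samples, which may be technical.

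Total signal divided by the smallest step between values gave about 8.68 to 12.8 M reads in bulk libraries and 7.98 to 20.9 M reads in sorted columns, and the signal worth 3 reads was at most 0.377 and 0.383. The lowest values lay at this step in shorter and in longer genes (median 1.00 steps in both), so the values give no sign of a division by gene length, the minimum of 10 is a signal per gene, and no level is compared between genes. Each mutated gene that was matched had its lowest mean in the mutant labelled for it. CG12674, the gene of Paf1L, had 4.86 ± 1.92 in bulk Paf1L mutants, against 55.1 ± 6.55 in w1118, and 1.031 ± 0.273 in sorted Paf1L mutants, against 21.8 ± 5.44 in sorted controls (mean ± SD, n = 3). CG10887, the gene of Leo1L, had 16.5 ± 1.01 in bulk Leo1L mutants and 7.38 ± 1.06 in sorted Leo1L mutants, against 63.03 ± 4.67 in w1118 and 20.2 ± 3.03 in sorted controls. The Ctr9L gene CG9899 had 10.3 ± 0.419 in bulk Ctr9L mutants and 114 ± 3.77 in w1118. Cdc73L was not matched to a gene of the tables.

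Marker levels differed between groups as well. In sorted cells the summed signal of 13 spermatocyte markers was 2527 to 2776 in Leo1L mutants and 2289 to 2440 in Paf1L mutants, against 2844 to 3049 in controls, while their median log2 difference from controls was -0.01 and -0.04. Parts of this list went the other way by sum. Its 4 testis TAF genes summed to 132 to 136 and 106 to 131, against 92.9 to 98.2 in controls (median log2 difference -0.06 and -0.30). The 6 genes of the testis meiotic arrest complex, some of them in the list, summed to 270 to 334 and 272 to 319, against 195 to 210. The summed signal of 11 accessory gland markers was 11.5 to 15.6 in sorted Leo1L mutants, 10.5 to 12.0 in sorted Paf1L mutants and 22.5 to 75.9 in sorted controls, with 1 of the 11 listed at 0 in every Paf1L column. The 9 muscle sheath markers summed to 22.1 to 27.2, 23.7 to 30.5 and 22.8 to 33.3 in the same order, again with 1 of them listed at 0 in the Paf1L columns. Hub and cyst markers summed to 85.8 to 98.0, 105 to 112 and 89.0 to 109, with a median log2 difference of -0.08 in Leo1L and 0.50 in Paf1L mutants. Early germline markers summed to 557 to 652, 570 to 647 and 643 to 742, and spermatid markers to 4047 to 4302, 3404 to 4072 and 3648 to 4546. The part of these markers in the values of the 60 genes in sorted cells was not tested.

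The word lost does not describe the sorted values: the genes were reduced, and none was listed at 0 in any mutant column. The lowest single mutant value was 2.09, well above the signal of 3 reads. As a share of the control mean, the 60 genes had 32.8% to 65.0% in Leo1L mutants (median 52.6%) and 19.8% to 59.7% in Paf1L mutants (median 45.8%). In Leo1L mutants 17 of the 60 had a mean under 50% of control, as did 2.18% of the 9495 genes with a mean of at least 1. In Paf1L mutants 42 had a mean under 50%, against 2.64% of those genes, and 1 had a mean under 25%. These counts follow from the choice of the genes. The median log2 fold change of the 60, on the scale of log2(signal + 1), was -0.91 in Leo1L mutants and -1.06 in Paf1L mutants, against -0.02 and -0.06 over all 5465 candidates. Among the candidates 994 (18.2%) had every mutant value below every control value, as did 11.6% of the 9495 genes, and 665 (12.2%) had every mutant value above.

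**Figure D1:**
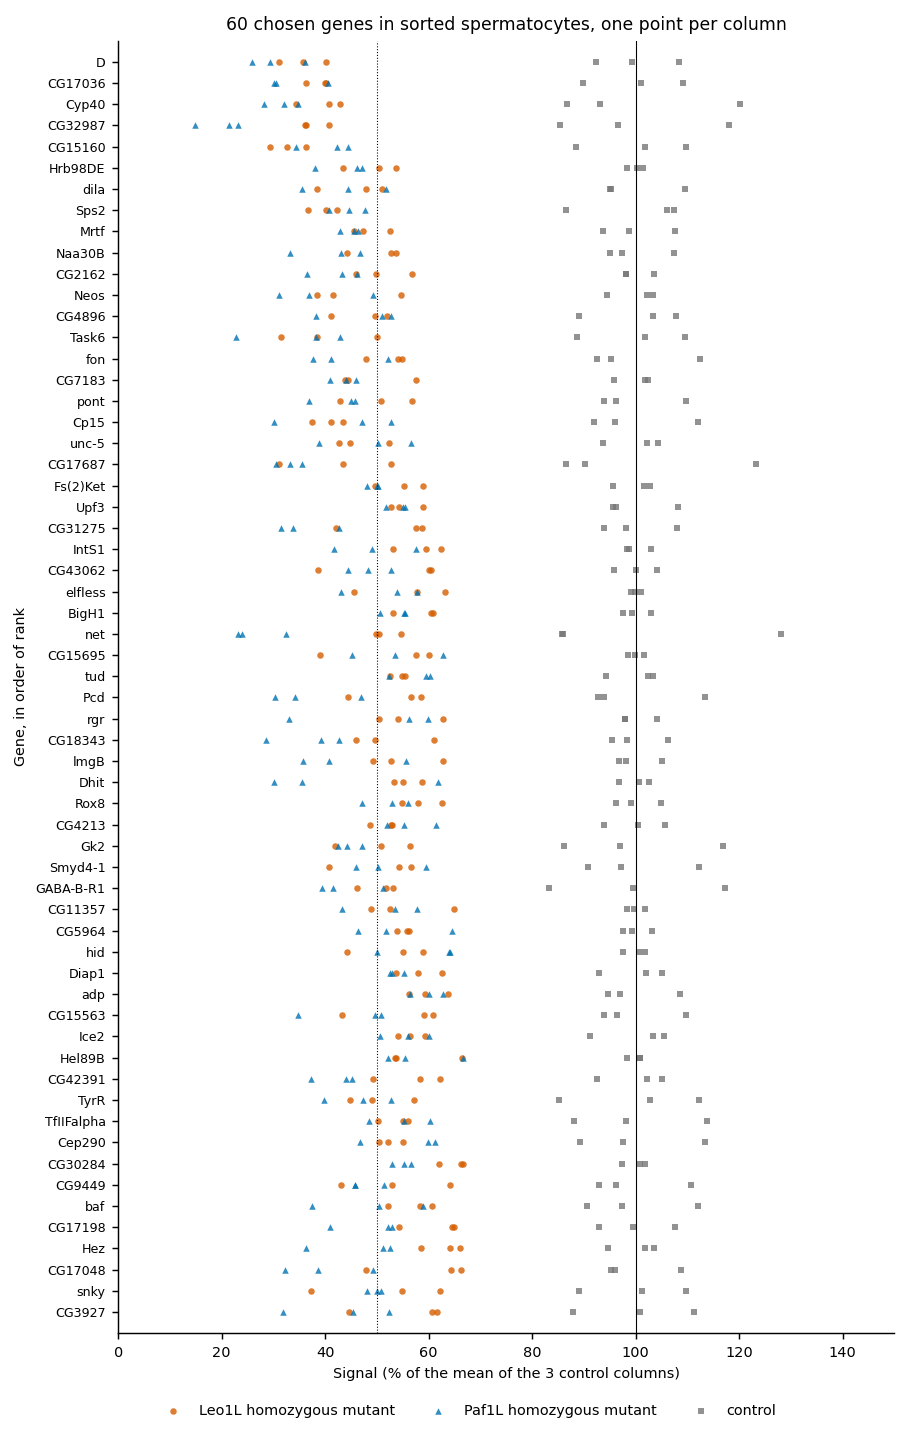
Signal of the 60 genes in sorted spermatocytes, as a percent of the mean of the 3 control columns (horizontal axis), with genes in order of rank from the top. Circles are Leo1L homozygous mutants, triangles Paf1L homozygous mutants and squares controls, 3 columns each; every mutant point lies left of every control point of its gene, which the ranking fixed, and the spread among the 3 columns of a mutant differs between genes.

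The lowest ratio belonged to D, which encodes Dichaete, a transcription factor of the SOX family (gene on 3L:14175610-14178620, minus strand, 2 exons). Its signal was 8.54, 7.63 and 6.61 in Leo1L mutants and 6.24, 5.53 and 7.68 in Paf1L mutants, against 23.1, 21.2 and 19.7 in controls. Mutant columns lay together and far below the control columns. CG17036 was next, with 7.55, 8.30 and 8.36 in Leo1L mutants and 8.44, 6.25 and 6.33 in Paf1L mutants, against 22.7, 20.99 and 18.7 in controls. Cyp40, a cyclophilin, had 37.0, 46.2 and 43.9 in Leo1L mutants and 34.5, 30.5 and 37.5 in Paf1L mutants, against 129.6, 100.4 and 93.4 in controls. The rest of the 12 lowest ranks were CG32987, CG15160, Hrb98DE, dila, Sps2, Mrtf, Naa30B, CG2162 and Neos. Hrb98DE, which encodes an RNA-binding protein of the hnRNP A family, had 255 ± 27.2 in Leo1L mutants and 227 ± 25.8 in Paf1L mutants, against 518 ± 7.93 in controls (SD, n = 3 each).

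By means, 48 of the 60 genes were lower in Paf1L than in Leo1L mutants and 12 the other way round, in the same values that chose them. The same share over the candidates was not counted, but their median log2 fold change was also lower in Paf1L (-0.06) than in Leo1L mutants (-0.02). In bulk testis the lean was the other way: the median log2 difference of Paf1L minus Leo1L mutants over the 60 was 0.08. Every Paf1L column lay below every Leo1L column for 7 genes, which is no larger a share than among the 5465 candidates (814, or 14.9%), so nothing particular to the 60 is read from it. The opposite held for none of the 60 and for 297 candidates. The gene with the lowest Paf1L share, CG32987, had 5.11, 5.72 and 5.08 in Leo1L mutants and 3.25, 2.09 and 3.00 in Paf1L mutants, against 16.6, 13.6 and 12.0 in controls. For net, a transcription factor of the basic helix-loop-helix class known from wing vein patterning, the values were 31.4, 34.4 and 31.7 in Leo1L mutants and 15.0, 20.4 and 14.6 in Paf1L mutants, against 54.1, 80.7 and 54.2 in controls. In the sorted columns, which chose the genes, both were lower in Paf1L than in Leo1L cells, with no overlap. In bulk the log2 difference of Paf1L minus Leo1L mutants was -0.11 for CG32987 and 0.08 for net (limma adjusted p 0.91 and 0.93). CG15160 lay on the other side by mean, with 32.8% of control in Leo1L and 40.3% in Paf1L mutants.

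Ratios ran on without a gap across the limit of the ranking. The last genes taken, CG17048, snky and CG3927, had ratios of 0.704, 0.708 and 0.708, and the first left out, eIF4H2, CG34396 and asp, had 0.709, 0.710 and 0.710. Of the names left out by the rule, upd1 had the lowest ratio of all candidates, 0.353, followed by WDY at 0.382, ND-51L1 at 0.404 and kl-5 at 0.450.

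In bulk testis all 60 genes could be tested, among 10925 genes with a mean signal of at least 1. Fits used limma on log2(signal + 1) over all 21 libraries, and a gene is called lowered or raised at a Benjamini-Hochberg adjusted p under 0.05. In bulk, fewer cells of a type and less RNA per cell cannot be told apart. Of the 60 genes, 32 were lowered in Cdc73L mutants, where 12.6% of all tested genes were; 38 in Ctr9L mutants (10.8% of tested genes); 45 in Leo1L mutants (15.1%); 46 in the inverted Leo1L cross (15.9%); and 44 in Paf1L mutants (15.0%). Among the candidates that were tested, genes with the same minimum level in sorted controls, 18.7%, 15.2%, 24.1%, 21.1% and 20.4% were lowered. The 60 genes just behind in rank, 61 to 120, gave 25, 19, 36, 34 and 28 lowered genes. All 5 mutants were set against the same 6 control libraries, so their counts are not independent of each other. Choosing genes low in Leo1L and Paf1L mutants also favours higher counts in those mutants than in Cdc73L and Ctr9L mutants.

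**Figure D2:**
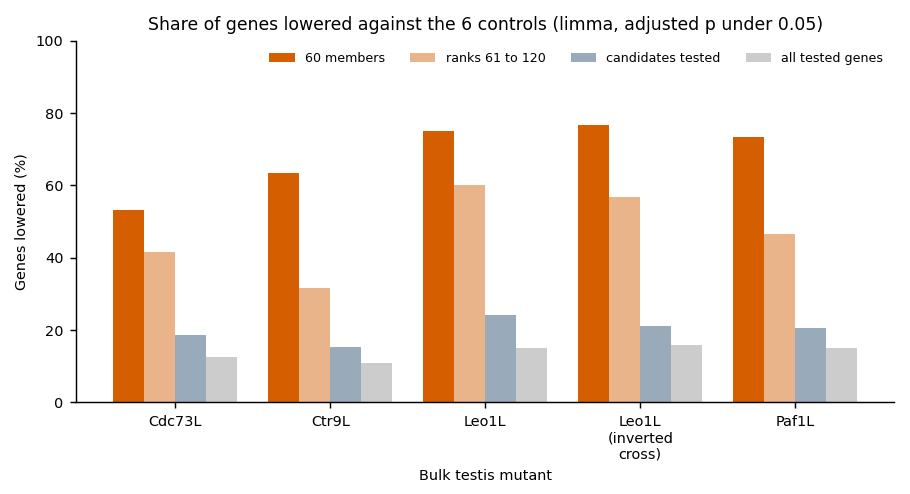
Percent of genes lowered in each bulk testis mutant against the 6 control libraries (limma, adjusted p under 0.05), for the 60 members, the genes of rank 61 to 120, the candidates that were tested and all 10925 tested genes. In all 5 groups the bar of the members is the highest; it is lowest among the groups for Cdc73L mutants (53.3%) and highest for the inverted Leo1L cross (76.7%).

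The median log2 fold change of the 60 was -0.28 in Cdc73L mutants and -0.31 in Ctr9L mutants. It was -0.50 in Leo1L mutants, -0.49 in the inverted cross and -0.39 in Paf1L mutants, and the medians over all tested genes lay between -0.00 and 0.03. These medians were nearer to 0 than those in sorted cells. The sorted values chose the genes, the sorted mutants were homozygous and not transheterozygous, and the tables were normalized separately. No weaker effect in bulk is therefore read from the difference. A log2 fold change of -1 or below with the same call was reached by 1 gene in Cdc73L (1.81% of tested genes), 1 in Ctr9L (0.485%), 12 in Leo1L (0.979%), 13 in the inverted cross (1.6%) and 7 in Paf1L (1.27%). With a pseudocount of 5 in place of 1 the last 3 counts were 6, 6 and 3, and the first 2 were 0. Every mutant library lay below every control library for 18 genes in Cdc73L mutants (7.44% of tested genes), 31 in Ctr9L (7.77%), 36 in Leo1L (10.3%), 35 in the inverted cross (9.17%) and 37 in Paf1L (10.5%). A single gene was raised in Cdc73L mutants, where 10.4% of tested genes were, and none in the other 4 groups, where 12.0% to 15.8% of tested genes were raised.

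The Cdc73L count rested on 1 library more than the others did: without Cdc73L replicate 3, 17 of the 60 genes (28.3%) were lowered. Over the 9 fits that each leave out 1 mutant or control library, 16 of the 32 calls in Cdc73L mutants held in every fit, as did 29 of 38 in Ctr9L, 38 of 45 in Leo1L, 40 of 46 in the inverted cross and 32 of 44 in Paf1L mutants. The testes of Cdc73L mutants also had less RNA of accessory gland markers, 24.5 to 328 summed signal against 461 to 2057 in the 6 controls. Of the 11 markers, 9 were lowered there. Single libraries were low in other mutants too, with sums of 30.0 to 1990 in the inverted cross and 57.6 to 3145 in Paf1L mutants. Ctr9L mutants had 481 to 3427 and Leo1L mutants 944 to 1336. None of the 11 markers was lowered in these other mutants. With a score of those markers as a covariate, 25 of the 60 genes were lowered in Cdc73L mutants, while their median log2 fold change was -0.33, against -0.28 without it. Muscle sheath markers were lowered in Ctr9L mutants (9 of 9, summed signal 331 to 449), the inverted cross (8 of 9, 236 to 426) and Paf1L mutants (7 of 9, 357 to 480), against 499 to 751 in controls, and none of the 9 passed in Cdc73L or Leo1L mutants; their part in the counts was not tested.

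**Figure D3:**
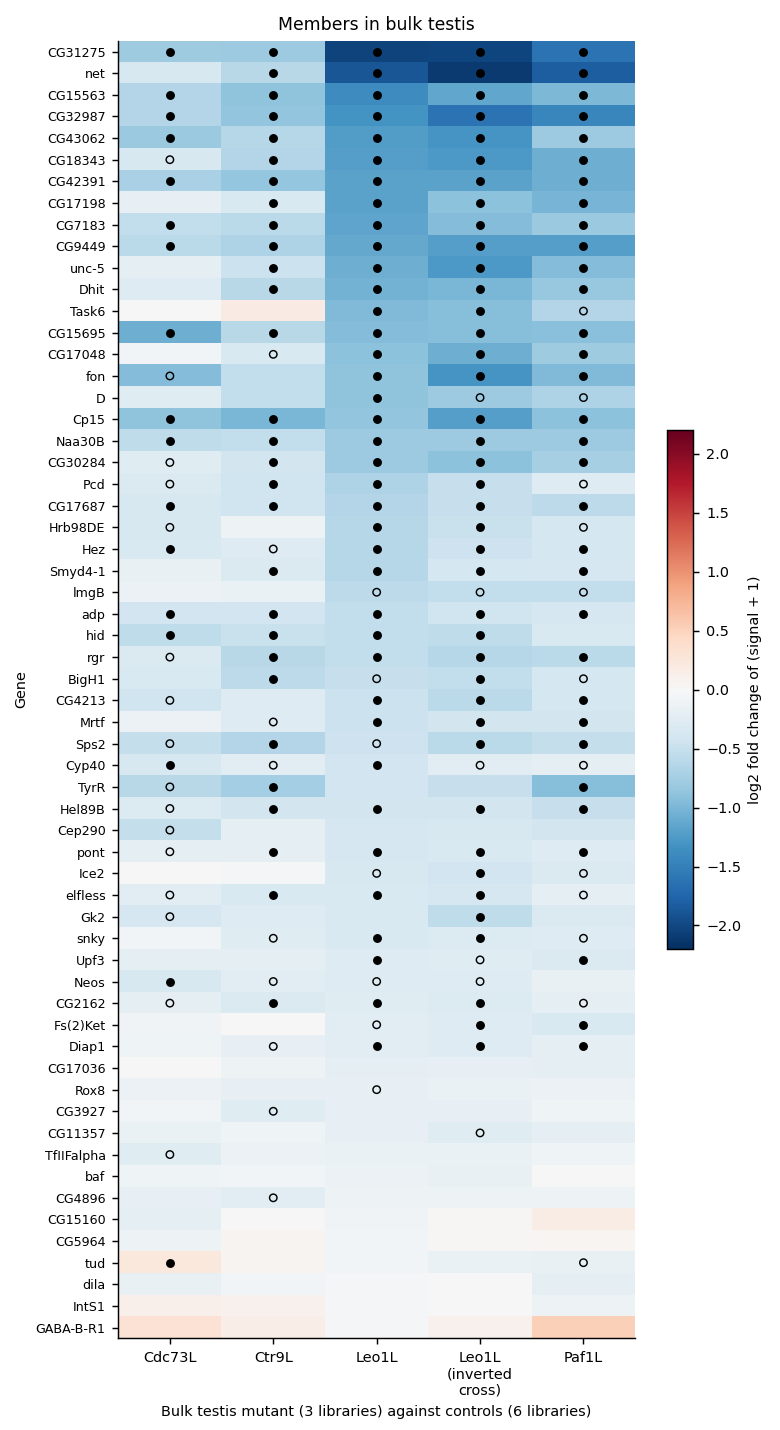
Log2 fold change of the 60 members in 5 bulk testis mutants (3 libraries each) against 6 control libraries, ordered by the value in Leo1L mutants; blue is lower and red higher in the mutant. Filled circles mark an adjusted p under 0.05 in the full fit and in all 9 fits without 1 library, open circles an adjusted p under 0.05 in the full fit that was lost in at least 1 of them. The darkest cells are those of CG31275 and net in Leo1L, inverted-cross and Paf1L mutants.

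The lowest log2 fold change in Leo1L mutants was that of CG31275, a single-exon gene with no role given here (3R:16750741-16751334, minus strand). Its signal was 28.9, 29.4 and 27.8 in Leo1L mutants, 26.3, 27.4 and 34.0 in the inverted cross and 34.9, 36.2 and 45.2 in Paf1L mutants. It was 75.1, 71.5 and 64.2 in Cdc73L and 70.5, 65.5 and 71.2 in Ctr9L mutants, against 105 to 143 (median 121) in the 6 controls. All mutant libraries lay below all controls, and those of Cdc73L and Ctr9L lay between the controls and the other mutants. CG31275 fell by 2.03 ± 0.10 on the log2 scale in Leo1L mutants, 2.02 ± 0.10 in the inverted cross and 1.62 ± 0.10 in Paf1L mutants (± SE; limma adjusted p 1.8e-10, 1.6e-10 and 2.9e-09). The log2 fold change was -0.77 in Cdc73L and -0.80 in Ctr9L mutants (adjusted p 7.5e-05 and 3.8e-05).

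The transcription factor gene net (2L:82421-87387, minus strand) had the lowest log2 fold change of the 60 in the inverted cross and in Paf1L mutants. Signals were 6.61, 5.95 and 4.86 in Leo1L, 4.28, 5.13 and 5.07 in inverted-cross and 5.44, 6.43 and 6.60 in Paf1L mutants. Ctr9L mutants had 17.3, 15.1 and 14.0 and Cdc73L mutants 19.2, 20.7 and 16.0, against 16.1 to 32.3 (median 23.1) in controls. Libraries of Leo1L, inverted-cross and Paf1L mutants stood clear of all controls, while those of Cdc73L and Ctr9L overlapped the lowest control. The log2 fold changes were -1.88 in Leo1L, -2.10 in the inverted cross and -1.81 in Paf1L mutants (limma adjusted p 8.3e-09, 2.5e-09 and 1.4e-08), -0.60 in Ctr9L mutants (adjusted p 0.0033) and -0.35 in Cdc73L mutants (adjusted p 0.064).

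CG32987, a single-exon gene on 2L (8863811 to 8864847, plus strand), was lowered in each of the 5 mutants. Signals were 5.57, 5.24 and 5.16 in Cdc73L mutants, 4.97, 3.70 and 4.54 in Ctr9L mutants and 3.28, 2.93 and 2.68 in Leo1L mutants. The inverted cross had 2.45, 1.67 and 2.56 and Paf1L mutants 3.57, 2.74 and 1.87, against 7.53 to 10.8 (median 8.51) in controls. No mutant library reached a control. Its log2 fold change was -0.64 in Cdc73L mutants and -0.87 in Ctr9L mutants, and -1.32, -1.62 and -1.43 in Leo1L, inverted-cross and Paf1L mutants (limma adjusted p 0.00699 or below).

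Other genes among the 5 lowest of a mutant were CG15695, fon, Cp15, CG43062, CG15563, CG42391, CG9449 and CG18343. In Leo1L mutants CG15563 had a log2 fold change of -1.38, CG43062 -1.22, CG18343 -1.21 and CG42391 -1.18 (limma adjusted p 9.7e-06 or below), and in Cdc73L mutants the same genes had -0.65, -0.81, -0.34 and -0.72. CG15695 differed from those above in that Cdc73L mutants had the lowest mean, though their libraries overlapped those of Leo1L mutants: 23.7, 27.8 and 33.0, with 36.6, 36.3 and 43.7 in Ctr9L and 27.1, 34.5 and 30.8 in Leo1L mutants, against 50.7 to 74.5 (median 58.7) in controls. It was the 1 gene with a log2 fold change of -1 or below in Cdc73L mutants (-1.08, adjusted p 4.1e-06), but leaving out Cdc73L replicate 1 moved that count to 0, and leaving out Cdc73L replicate 3, w1118 iso replicate 2 or w1118 iso replicate 3 moved it to 2. CG9449 was lowered in all 5 groups, with log2 fold changes of -0.59 in Cdc73L and -0.69 in Ctr9L mutants, -1.13 in Leo1L mutants and -1.21 in both inverted-cross and Paf1L mutants (limma adjusted p 0.000204 or below).

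**Figure D4:**
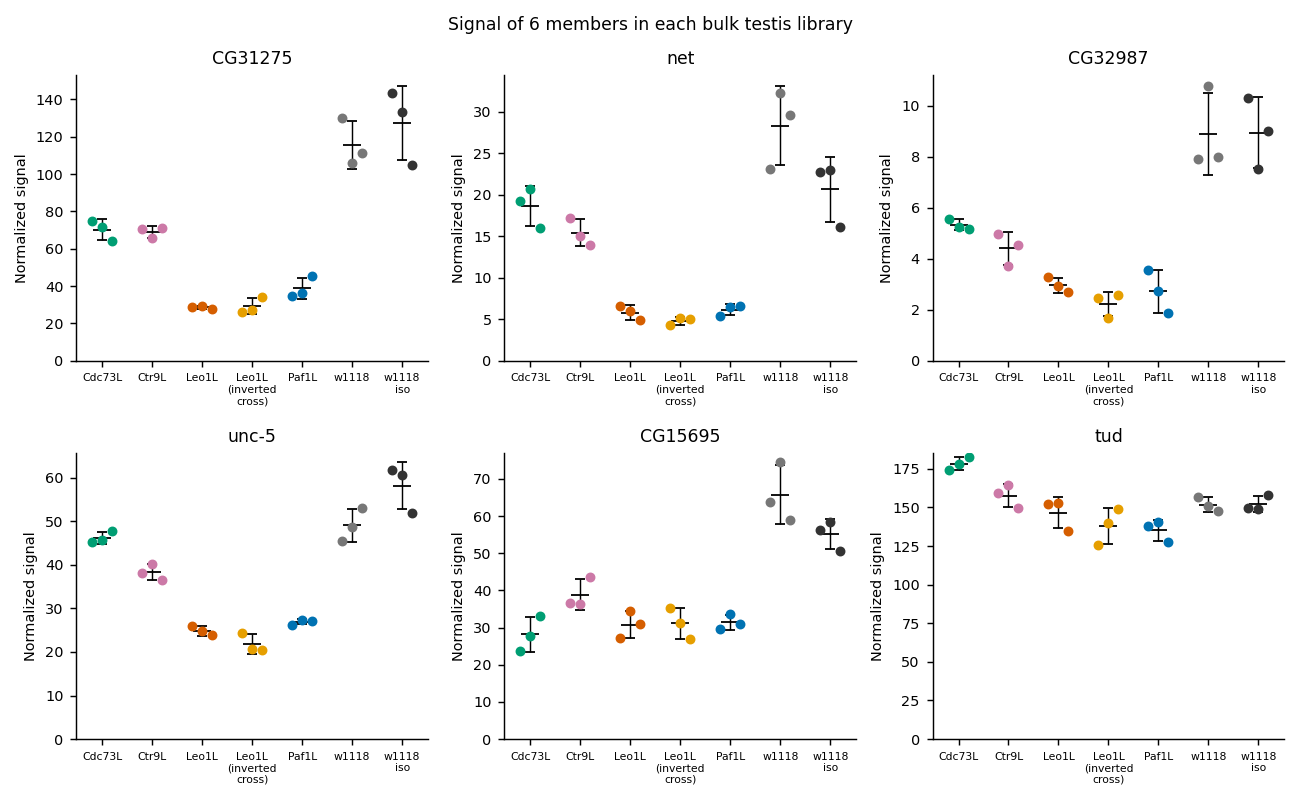
Normalized signal of 6 members in each of the 21 bulk testis libraries (points), with the mean and SD of each group of 3 (bars). CG31275, net, CG32987 and unc-5 are lowest in Leo1L, inverted-cross and Paf1L mutants, CG15695 has its lowest mean in Cdc73L mutants, and tud its highest.

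Functions are given below for 34 of the 60 genes, grouped by hand after the genes were chosen and their values seen, and no group was tested as a set. The counts of each group stand beside a share lowered of 10.8% to 15.9% of all tested genes and 15.2% to 24.1% of the tested candidates. Calls named below held in all 9 fits without 1 library unless a library is named, and calls that did not hold are counted but mostly not named. The largest group, 11 genes of transcription and chromatin, was mostly of moderate change: 3 were lowered in Cdc73L, 6 in Ctr9L and 8 each in Leo1L, inverted-cross and Paf1L mutants, with medians of -0.19, -0.29, -0.40, -0.40 and -0.37. Of these calls 0, 5, 6, 7 and 5 held in all 9 fits without 1 library. Besides net, the group holds pont, an ATPase of chromatin remodelling complexes, with log2 fold changes of -0.22 in Ctr9L, -0.37 in Leo1L, -0.33 in inverted-cross and -0.28 in Paf1L mutants (limma adjusted p 0.0048 or below). Hel89B, a helicase of the SNF2 class, had -0.40 in Ctr9L, Leo1L and inverted-cross mutants and -0.51 in Paf1L mutants (adjusted p 0.00102 or below). Mrtf, a coactivator of serum response factor, had -0.47 in Leo1L and -0.40 in inverted-cross and Paf1L mutants (adjusted p 0.0024 or below). BigH1, a linker histone variant of the germline and early embryo, was lowered in Ctr9L mutants and the inverted cross (-0.58 and -0.55, adjusted p 0.0056 and 0.0054). Smyd4-1, of the SMYD family of putative methyltransferases, was lowered in Ctr9L, Leo1L, inverted-cross and Paf1L mutants (-0.31, -0.62, -0.39 and -0.37, adjusted p 0.0031 or below). Ice2, of the little elongation complex that acts on small nuclear RNA genes, had -0.36 in Leo1L and -0.43 in inverted-cross mutants, and the Leo1L call was lost without Leo1L replicate 1 (adjusted p 0.117). TfIIFalpha, the large subunit of the general factor TFIIF, ran from -0.27 in Cdc73L to -0.09 in Paf1L mutants, and its call in Cdc73L mutants was lost without Cdc73L replicate 1 or 3 (adjusted p 0.136 and 0.0852).

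D, first in rank in the sorted cells, had a wide spread in bulk controls, 8.92 to 31.8 (median 22.6), and every mutant group overlapped it. It had 8.96, 10.5 and 12.7 in Leo1L mutants, and its log2 fold change was -0.89 ± 0.22 there (limma adjusted p 0.0054). In the inverted cross it was -0.80 (adjusted p 0.011, and 0.056 without inverted-cross replicate 2). In Paf1L mutants it was -0.68 (adjusted p 0.029), and the call was lost without any 1 of the 3 Paf1L libraries or without w1118 replicate 2 or 3 (adjusted p 0.0596 to 0.107). In Cdc73L and Ctr9L mutants the values were -0.27 and -0.55 (adjusted p 0.41 and 0.088).

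Of 4 genes of RNA binding and decay, 1, 0, 3, 2 and 3 were lowered in Cdc73L, Ctr9L, Leo1L, inverted-cross and Paf1L mutants, and 0, 0, 2, 1 and 1 of these calls held in all 9 fits. Hrb98DE was lowered in Leo1L mutants (log2 fold change -0.63, limma adjusted p 0.00027) and the inverted cross (-0.48, 0.0029). Upf3, a factor of nonsense-mediated decay, was lowered in Leo1L and Paf1L mutants (-0.29 and -0.32, adjusted p 0.00645 and 0.00334). Rox8, an RNA-binding protein of the TIA-1 family, had -0.18 in Leo1L mutants (adjusted p 0.036), a call lost without Leo1L replicate 2 or 3 or w1118 replicate 1 or 2 (adjusted p 0.0691 to 0.182), and -0.17 to -0.13 in the other 4. The 1 gene raised in a mutant was tud, which encodes Tudor, a scaffold of germ granules. In sorted cells its mean was 54.3% of control in Leo1L and 57.4% in Paf1L mutants. In bulk it had 174, 178 and 183 in Cdc73L mutants, all above the controls at 148 to 158 (median 150). It was raised there by a log2 fold change of 0.23 (limma adjusted p 0.0089). That call held in all 9 fits without 1 library. It was lost with the accessory gland score as a covariate, where 0 of the genes were raised in Cdc73L mutants. In Paf1L mutants tud had 138, 140 and 128 and a log2 fold change of -0.17 (adjusted p 0.038, and 0.052 to 0.193 in the fits without Paf1L replicate 1, Paf1L replicate 3, w1118 replicate 1, w1118 replicate 2 or w1118 iso replicate 3).

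Of 4 genes of metabolism 4, 3, 3, 4 and 3 were lowered in the same order of mutants, and of 3 genes of protein folding, modification and nuclear import 2, 2, 3, 3 and 3. Of these calls 1, 3, 2, 4 and 2 in metabolism and 2, 1, 2, 2 and 2 in the other group held in all 9 fits. The gene adp, known for its part in fat storage, had 86.1 to 89.4 in Cdc73L, 86.7 to 90.2 in Ctr9L, 77.9 to 86.9 in Leo1L, 84.01 to 90.2 in inverted-cross and 85.6 to 95.7 in Paf1L mutants, against 104 to 126 in controls. No mutant library overlapped the controls, and the log2 fold changes lay between -0.54 in Leo1L and -0.37 in Paf1L mutants (limma adjusted p 0.000163 or below in each). Naa30B, an N-terminal acetyltransferase, had log2 fold changes of -0.55 in Cdc73L, -0.54 in Ctr9L, -0.81 in Leo1L, -0.80 in inverted-cross and -0.81 in Paf1L mutants (adjusted p 0.0003 or below). Sps2, a selenophosphate synthetase, was lowered in Ctr9L, inverted-cross and Paf1L mutants (-0.64, -0.60 and -0.52, adjusted p 0.00716 or below). Pcd, which regenerates the pterin cofactor, was lowered in Ctr9L, Leo1L and inverted-cross mutants (-0.45, -0.68 and -0.51, adjusted p 0.00497 or below). Gk2, a glycerol kinase gene, was lowered in the inverted cross (-0.56, adjusted p 0.0032), and its call in Cdc73L mutants (-0.37, adjusted p 0.049) was lost in 7 of the 9 fits. Fs(2)Ket, the importin beta of the fly, was lowered in the inverted cross and in Paf1L mutants (-0.28 and -0.33) and had 0.01 in Ctr9L mutants (adjusted p 0.96).

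Of 5 genes of membrane receptors, channels and signalling 1, 3, 3, 3 and 4 were lowered in Cdc73L, Ctr9L, Leo1L, inverted-cross and Paf1L mutants, and 0, 3, 3, 3 and 3 of these calls held in all 9 fits. The netrin receptor gene unc-5 had 45.2, 45.7 and 47.8 in Cdc73L mutants, 38.1, 40.3 and 36.6 in Ctr9L mutants and 26.1, 24.8 and 23.8 in Leo1L mutants. The inverted cross had 24.5, 20.6 and 20.4 and Paf1L mutants 26.3, 27.4 and 27.2, against 45.4 to 61.9 (median 52.6) in controls. Only the Cdc73L libraries overlapped the controls. Its log2 fold change was -0.47 in Ctr9L, -1.07 in Leo1L, -1.25 in inverted-cross and -0.96 in Paf1L mutants (limma adjusted p 0.00018 or below), and -0.20 in Cdc73L mutants (adjusted p 0.051). Task6, a potassium channel, was lowered in Leo1L and inverted-cross mutants (-0.98 and -0.93, adjusted p 0.00028 and 0.00046), and its log2 fold change was 0.00 and 0.17 in Cdc73L and Ctr9L mutants (adjusted p 0.996 and 0.51). Dhit, a regulator of G protein signalling, was lowered in Ctr9L, Leo1L, inverted-cross and Paf1L mutants (-0.61, -1.04, -1.01 and -0.83). TyrR, a tyramine receptor, was lowered in Ctr9L and Paf1L mutants (-0.75 and -0.95, adjusted p 0.011 and 0.0015).

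The remaining groups are small. The cell death inducer hid was lowered in Cdc73L, Ctr9L, Leo1L and inverted-cross mutants (-0.55, -0.50, -0.54 and -0.56, limma adjusted p 0.011 or below), and its antagonist Diap1 was lowered in Leo1L, inverted-cross and Paf1L mutants (-0.23, -0.29 and -0.20, adjusted p 0.0028 or below). Cp15, an eggshell protein gene, was lowered in all 5 groups, with log2 fold changes of -0.89 in Cdc73L, -1.001 in Ctr9L, -0.88 in Leo1L, -1.21 in the inverted cross and -0.90 in Paf1L mutants (adjusted p 0.0009 or below), and it was the 1 gene at -1 or below in Ctr9L mutants, a count that was 0 without Ctr9L replicate 2 or 3, w1118 replicate 2 or 3 or w1118 iso replicate 2. The gene snky, needed in fertilization for the breakdown of the sperm membrane, was lowered in Leo1L and inverted-cross mutants (-0.33 and -0.29, adjusted p 0.0034 and 0.0082). The clotting gene fon was lowered in Leo1L, inverted-cross and Paf1L mutants (-0.89, -1.30 and -0.97), and its controls ran between 25.3 and 84.6. Cep290, of the ciliary transition zone, had -0.52 in Cdc73L mutants, where its call was lost without Cdc73L replicate 1 or 3 or w1118 replicate 2 or 3, and -0.41 to -0.20 in the others. Of the 26 genes without a function given here, 17, 20, 20, 21 and 19 were lowered in Cdc73L, Ctr9L, Leo1L, inverted-cross and Paf1L mutants, and 11, 15, 18, 18 and 16 of these calls held in all 9 fits. Among them elfless had log2 fold changes of -0.24 in Cdc73L, -0.33 in Ctr9L, -0.34 in Leo1L, -0.37 in inverted-cross and -0.22 in Paf1L mutants (limma adjusted p 0.0078 or below), with calls lost without Cdc73L replicate 3 in Cdc73L and without Paf1L replicate 2 in Paf1L mutants. Hez had -0.33, -0.28, -0.63, -0.46 and -0.39 in the same order (adjusted p 0.0091 or below), and the Ctr9L call was lost without Ctr9L replicate 2 (adjusted p 0.0662). The gene lmgB had -0.58 in Leo1L, -0.55 in inverted-cross and -0.54 in Paf1L mutants (adjusted p 0.018, 0.025 and 0.028), and each of these calls was lost without at least 1 library (adjusted p 0.054 to 0.138).

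Several genes reduced in sorted cells passed the test in no bulk mutant. CG15160, at rank 5, had 8.08 ± 0.862 in sorted Leo1L and 9.94 ± 1.31 in sorted Paf1L mutants, against 24.7 ± 2.64 in sorted controls. In bulk it had 16.1, 18.9 and 22.7 in Leo1L and 24.5, 23.4 and 20.3 in Paf1L mutants, against 17.4 to 21.9 (median 20.7) in controls, and its log2 fold changes were -0.08 and 0.16 (limma adjusted p 0.69 and 0.36). Its mutant libraries overlapped the controls. The same held for dila, a basal body gene, with log2 fold changes between -0.19 and 0.01 over the 5 mutants, and for IntS1, a subunit of the Integrator complex, with -0.11 to 0.10. GABA-B-R1, a receptor for the transmitter GABA, ran from -0.02 to 0.52, and baf, a chromatin protein of the nuclear envelope, from -0.15 to 0.00. CG5964, named after its values were seen, had -0.11 to 0.05. CG17036, second in rank, had log2 fold changes of -0.22 to 0.01, and its control stocks differed: 21.7, 24.2 and 19.0 in w1118 iso, against 9.97, 7.84 and 17.6 in w1118 (log2 fold change 0.89, adjusted p 0.0053).

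Mutant groups were then compared directly, 3 libraries against 3 and with no control library in the contrast. The genes were chosen as low in sorted Leo1L and Paf1L mutants, and no Cdc73L or Ctr9L mutant cells were sorted. That choice favours lower values in Leo1L and Paf1L mutants, so the direction of these counts is not independent of it. Between Leo1L and Cdc73L mutants 17 of the 60 genes differed (6.29% of all tested genes), and all 17 were lower in Leo1L (3.75% of tested genes were). Between Leo1L and Ctr9L mutants 13 differed (5.28% of tested genes), all lower in Leo1L (2.97%). Between Paf1L and Cdc73L mutants the count was 11 (6.72% of tested genes), all lower in Paf1L (3.6%). Between Paf1L and Ctr9L mutants it was 9 (4.91%), all lower in Paf1L (2.54%). The last count was 5 without Ctr9L replicate 1, 2 or 3, and the first was 11 with the accessory gland score as a covariate. For net the log2 difference was -1.53 between Leo1L and Cdc73L, -1.28 between Leo1L and Ctr9L, -1.45 between Paf1L and Cdc73L and -1.20 between Paf1L and Ctr9L (limma adjusted p 9.6e-05 or below). For CG31275 these differences were -1.26, -1.24, -0.85 and -0.83, and for unc-5 -0.87, -0.60, -0.76 and -0.49 (adjusted p 0.0015 or below). For tud the difference was -0.28 between Leo1L and Cdc73L and -0.40 between Paf1L and Cdc73L (adjusted p 0.015 and 0.001).

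No gene of the 60 passed in 3 other contrasts, and the unadjusted counts give their size. Between Paf1L and Leo1L mutants 0 passed (0.238% of tested genes), and 11 had an unadjusted limma p under 0.05, 1 of them lower in Paf1L (18.3%, where 9.63% of tested genes had such a p). Between Ctr9L and Cdc73L mutants 0 passed (0.265%), and 9 had an unadjusted p under 0.05, 8 of them lower in Ctr9L (15% against 15.4% of tested genes). Between the inverted cross and Leo1L 0 passed (0.0366%), and 5 had an unadjusted p under 0.05, 1 of them lower in the inverted cross (8.33% against 5.57% of tested genes). The differences between Paf1L and Leo1L ran from -0.52 to 0.54 with a median SE of 0.12. The control stocks w1118 iso and w1118 differed in 3 of the 60 genes (8.69% of tested genes): CG17036 and Cyp40 were higher and rgr lower in w1118 iso. That count was 8 without w1118 iso replicate 1.

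The positions of the genes were looked up in the Ensembl annotation of BDGP6.54, and all 60 were found. They lay on 2L (13), 2R (14), 3L (17) and 3R (16), and none lay on X, where 790 of the 5458 candidates with a position did (14.5%). The first X-linked candidate in the ranking stood at rank 117. Of the 994 candidates with every mutant value below every control value, 23 (2.31%) were on X. No pair of the 60 lay within 50000 bases of each other. The annotated spans of 23 overlapped another measured gene, 6 on the same strand and 20 on the opposite strand, and no partner was among the 60. Reads in a stretch shared on the same strand cannot be assigned by strand. The whole span of lmgB (3620 bases) is shared in this way with lmgA. CG33310, which overlaps GABA-B-R1 over 2632 bases on the same strand, had 7.36 in sorted Leo1L and 5.80 in sorted Paf1L mutants, against 12.9 in sorted controls (means). Their median exonic length was 2472 bases, against 1976 for the candidates, 13.3% had no intron, against 14.5%, and the longest intron had a median of 168 bases, against 149.

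This absence led to a comparison of chromosomes that was chosen after the values were seen. The median log2 difference from the control mean over the 790 X-linked candidates, minus that over 4653 autosomal candidates, was 0.24 to 0.26 in the Cdc73L libraries, 0.28 to 0.29 in Ctr9L, 0.29 to 0.31 in Leo1L, 0.29 to 0.34 in the inverted cross and 0.25 to 0.28 in Paf1L, against -0.05 to 0.04 in the 6 controls. X-linked genes were thus higher relative to autosomal genes in every mutant library than in any control, with mean differences of 0.25 to 0.31. The two-sided permutation p was 0.0238 in each mutant, the smallest that 3 against 6 libraries allow, and 0.0333 adjusted over the 7 comparisons computed. Genes were centred on the control mean once and not again for each split, which draws the controls towards 0. These p-values are therefore not exact, and no conclusion rests on them. In sorted cells the values were 0.30 to 0.36 in Leo1L and 0.30 to 0.36 in Paf1L mutants, against -0.01 to 0.01 in controls. These 2 comparisons are among the 7, with a permutation p of 0.1 each, the smallest that 3 against 3 columns allow, and they come from the contrast that chose the genes, so nothing is read from them. X-linked genes were 16.0% of the genes tested in bulk, 2.75% to 5.12% of the lowered genes and 34.0% to 38.7% of the raised genes. A background without X-linked genes leaves the counts of the 60 above it: of the autosomal tested genes, 14.6% were lowered in Cdc73L, 12.3% in Ctr9L, 17.3% in Leo1L, 18.0% in the inverted cross and 16.9% in Paf1L mutants.

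**Figure D5:**
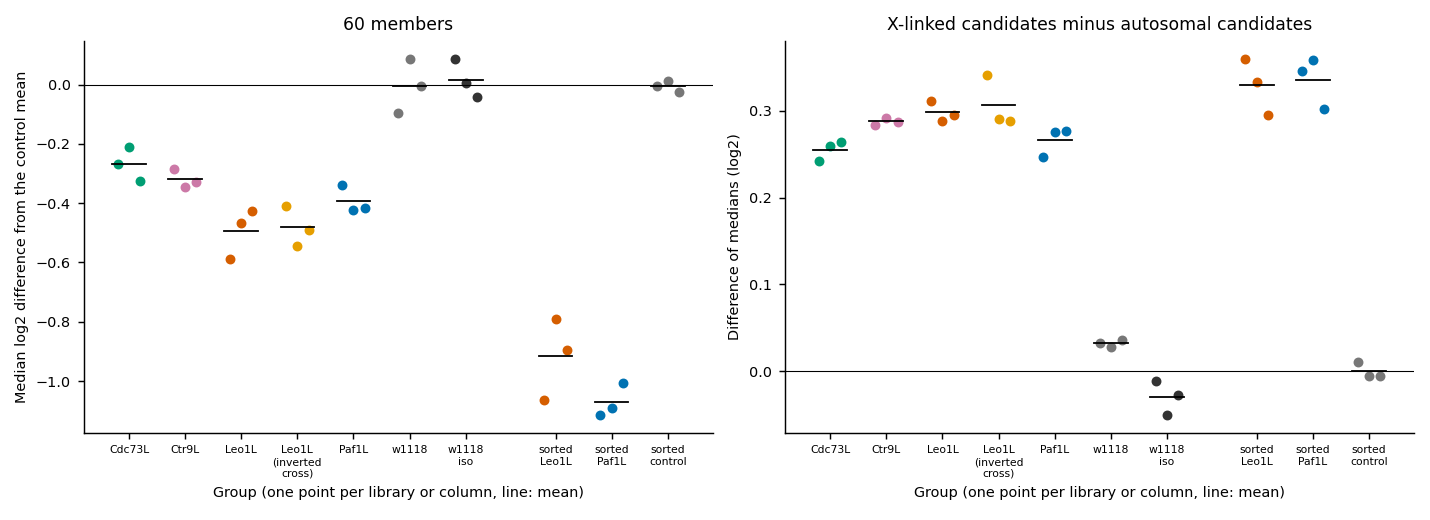
Left, the median over the 60 members of the log2 difference from the control mean, for each bulk library and sorted column; the sorted columns were used to choose the members. Right, the same median over X-linked candidates minus that over autosomal candidates. Lines are group means; in both panels no mutant point overlaps the control points of its table, which lie below 0.04 at right while every mutant point there lies at 0.24 or above.

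Reads in a stretch shared on the same strand cannot be told apart by strand. For overlaps on the opposite strand, the sources used do not state whether counting used the strand. Whole spans with introns were compared, so shared bases need not be exonic. Another measured gene overlapped 23 of the 60, in 6 cases on the same strand. CG33310, which shares 2632 bases with GABA-B-R1 on the same strand, had means of 7.36 in sorted Leo1L and 5.80 in sorted Paf1L mutants, against 12.9 in sorted controls. CG11807, which shares 795 bases with CG42391, had 85.6 and 73.5, against 121. Ptp61F, which contains Naa30B, had 119 and 127, against 122. The whole span of Hez (1556 bases) is shared with CG6709, which had 34.6 and 32.2, against 36.6. That of CG17198 (2036 bases) is shared with CG17197, which had 104 and 85.8, against 97.9. The values of all 6 genes, GABA-B-R1, CG42391, Naa30B, Hez, CG17198 and lmgB, are therefore uncertain as values of single genes. Without the 6 genes overlapped on the same strand, the share lowered in bulk was 53.7%, 62.96%, 74.1%, 75.9% and 72.2% in Cdc73L, Ctr9L, Leo1L, inverted-cross and Paf1L mutants. Genes overlapped only on the opposite strand stayed in these shares.

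None of the 60 genes belonged to the lists of related genes. For the Y-linked list the rule fixed this in part, since kl-2, kl-3, kl-5, ORY, CCY and WDY were removed by name. Before removal WDY, kl-5 and CCY stood at ranks 2, 4 and 20. For scale, 10.8% to 15.9% of all tested genes and 15.2% to 24.1% of the tested candidates were lowered in a bulk mutant, and 10.4% to 15.8% of tested genes were raised. Of 3 measured genes of the canonical PAF1 complex, 0 were lowered in any bulk mutant. None was raised in Cdc73L mutants, and 1 was raised in each of Ctr9L, Leo1L, inverted-cross and Paf1L mutants. The testis TAF genes encode testis forms of subunits of the general factor TFIID. Of 4 measured, 1 was lowered in Ctr9L mutants and none in the others. In Cdc73L, Ctr9L, Leo1L, inverted-cross and Paf1L mutants 1, 0, 2, 1 and 2 of them were raised. Of 6 genes of the testis meiotic arrest complex none was lowered and 1 or 2 were raised in each mutant. Of 13 spermatocyte markers 1 was lowered and 3 to 5 were raised in each bulk mutant. Of 14 measured spermatid genes of the cup and comet class, transcribed after meiosis, 6 were lowered in Cdc73L, 2 in Ctr9L, 8 in Leo1L, 7 in inverted-cross and 8 in Paf1L mutants. Of 10 measured genes for stored sperm transcripts 2, 2, 4, 4 and 4 were lowered and 1, 0, 0, 0 and 0 raised. Of 4 tested axonemal dynein heavy chain genes outside the Y chromosome 0, 0, 1, 1 and 1 were lowered. Of the same dynein genes 0, 1, 1, 1 and 1 were raised. Of 12 Y-linked genes 3, 6, 8, 7 and 8 were lowered and 2, 1, 0, 1 and 1 raised. None of the 14 spermatid genes was raised. Hub and cyst cell markers, 8 in all, had 0 or 1 lowered and 0 to 2 raised. The 6 early germline markers had 0 to 2 lowered and 0 or 1 raised.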

How the data were processed

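The deposited tables, 1 of bulk testis and 1 of sorted spermatocytes, hold normalized signal per gene, named GeTMM by the authors. Per the submitters' processing notes, STAR, Salmon, edgeR 3.34.0, DESeq2 and the build dm6 were used, with no role or order given; strand setting and annotation are not given in the sources used here. Low values fell mostly on multiples of a single step (52.8% to 86.2% within 0.1 step in bulk libraries, 73.9% to 84.6% in sorted columns), too few to recover reads, so no count model was run. Counting intervals and the value of 3 reads cover counting error only. The tables were normalized separately and were tested separately.

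Genes with a mean of at least 1 were fitted on log2(signal + 1) with limma 3.58.1 in R 4.3.3 (group means over 21 bulk libraries, eBayes with trend), with Benjamini-Hochberg adjustment over 10925 genes; fold changes on this scale understate those of low genes. The fit was tested on simulated data. Permutation tests over all splits used scipy. Positions came from Ensembl annotation 115 of BDGP6.54, matched for 13642 genes. Members, lists and tests were chosen with earlier results of these data known. Genes named are the 12 of lowest ratio, members with a symbol other than CG and digits, the 5 lowest per bulk mutant, raised members, the ranks around the limit, the mutated genes and overlapping genes. Alternatives covered pseudocount, filter, scaling, control stock, accessory gland score, replicate number, single libraries and the ranking rule.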

Additional observations from a re-analysis of the deposited data

Results flagged for a closer look

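In 4 of the 60 genes 1 of the 6 bulk control libraries stood apart, judged by its gap to the nearest library as a share of the whole range (Dixon's test); chance alone flags about 1 in 20 groups. BigH1 was high in w1118 iso replicate 3 (65.6, gap 0.652 of the range), as was baf (30.1, gap 0.682). Gk2, a glycerol kinase gene, was low in the same library (23.8, gap 0.656), and snky was low in w1118 replicate 3 (39.1, gap 0.638). Differences between groups were tested directly: 17 genes differed between Leo1L and Cdc73L mutants, 13 between Leo1L and Ctr9L, 11 between Paf1L and Cdc73L, 9 between Paf1L and Ctr9L, and 3 between w1118 iso and w1118 (limma, Benjamini-Hochberg adjusted p under 0.05).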

How the results depend on the processing

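No result over the 60 genes reversed under an alternative; of the alternative values of counts, shares and medians, 56 moved, and 610 lay within 1.5 times the count or share or within 1 SD of the median reported. Those limits are wide: the share lowered in Cdc73L mutants, 53.3% as reported, was 41.67% after rescaling, with either control stock alone and with the accessory gland score, and that in Ctr9L mutants, 63.3% as reported, was 47.5% for 120 genes. Leaving out 1 library at a time, the share lowered ran from 28.33% to 58.33% in Cdc73L, 51.67% to 66.67% in Ctr9L, 68.33% to 80% in Leo1L, 68.33% to 81.67% in inverted-cross and 56.67% to 76.67% in Paf1L mutants. Counts at a log2 fold change of -1 or below ran from 0 to 2, 0 to 1, 11 to 15, 11 to 16 and 5 to 10 in the same order, and 5 to 6 genes differed between Paf1L and Ctr9L and 2 to 8 between w1118 iso and w1118. The replicate numbers did not pair the bulk libraries; with a replicate block the share lowered was 50%, 63.33%, 75%, 76.67% and 66.67%, and 16, 13, 11, 8 and 3 genes differed in the direct contrasts with calls. Medians moved to -0.2044 in Cdc73L mutants after rescaling to one total; to -0.2803 (centred on autosomes), -0.3674 (control mean of at least 5), -0.2528 (ratio of means) and -0.2489 (120 genes) in Ctr9L; to -0.3977 (control mean of at least 20, and 120 genes) in the inverted cross; and to -0.3138 (rescaled) and -0.4728 (ratio of means) in Paf1L. Raised genes numbered 2 in Cdc73L mutants after rescaling and 0 with the accessory gland score. They numbered 1 in Ctr9L (control mean of at least 5, ratio of means), 1 in Leo1L (ratio of means), 2 (ratio of means) and 1 (120 genes) in the inverted cross, and 1 in Paf1L (rescaled, w1118 alone, centred on autosomes, ratio of means, 120 genes). Counts at -1 or below were 0 in Cdc73L (pseudocount 5, w1118 iso alone), 2 (w1118 alone, control mean of at least 20, ratio within replicate numbers) or 3 (control mean of at least 5, ratio of means). In Ctr9L they were 2 (pseudocount 0.1, control mean of at least 5) or 0 (pseudocount 5, rescaled, quantile normalization, w1118 iso alone, accessory gland score, centred on autosomes, control mean of at least 20). With pseudocount 5 they were 6 in Leo1L, 6 in the inverted cross and 3 in Paf1L, and with a control mean of at least 20 they were 8 in the inverted cross. With the accessory gland score 11 genes differed between Leo1L and Cdc73L. The cause of these shifts was not tested. Ranking by the ratio of means kept 29 of the 60 genes, and of those chosen that way 38.98%, 45.76%, 59.32%, 62.71% and 59.32% were lowered. For single genes 275 values lost the call and 3837 kept their side. Values near 3 reads are limited by depth. A search of promoters for motifs and protein lengths was not run.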
